A study of Mus musculus with 4 samples.

Results

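Pax7 and 9 other genes that mark satellite cells were followed in young and aged muscle. The 10 genes were Pax7, Pax3, Msc, Cd34, Vcam1, Cdh15, Calcr, Met, Megf10 and Chrdl2, and their members were the probe sets (groups of short probes against 1 transcript) that the platform annotation assigned to exactly 1 of them. This gave 16 of the 45101 probe sets on the array, for 10 of 18193 measured genes. All 16 had a value on every array, and no filter on low values was applied. The cells came from hindlimb muscle of C57BL/6J mice, young at 3 to 6 months or aged at 20 to 25 months, with no further treatment or genotype given. Each pool held the cells of 4 to 8 mice by the series text, or 6 to 8 by the sample text, and was sorted for syndecan-4, a proteoglycan of the cell surface. Each age had 2 independent pools, named young 1, young 2, aged 1 and aged 2 below, with 1 Affymetrix array per pool. By its title, the study asks how p38 signalling bears on self-renewal of muscle stem cells in old age.

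Satellite cells lie between a muscle fibre and its basement membrane and divide to repair the fibre. Pax7, a paired-box transcription factor, is the usual mark of these cells and is needed to maintain them in the adult, and its paralogue Pax3 acts earlier, in muscle precursors of the embryo, and remains on in satellite cells of some muscles. The surface proteins Cd34, Vcam1, Cdh15, Calcr and Met are used to recognise or sort the cells and take part in adhesion, quiescence or activation.

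Values are taken as log2 with higher meaning more RNA, although neither the base nor the direction was stated, and each is relative to the median of its probe set over the 4 arrays. A value of 0 therefore means the middle of the 4 arrays and says nothing about how abundant the transcript was. Neither the presence of the satellite cell markers nor their order of abundance can be read from these values, so the label could not be checked by level. The array medians lay between -0.07 and 0.05. A difference is aged minus young, its ± is the standard error of the limma fit with n = 2 pools per age, and p-values adjusted by Benjamini-Hochberg (adjusted p) are over all features of a fit. RNA was extracted from whole pools, so fewer cells of a type and less RNA per cell cannot be told apart.

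Pax7 was higher in both aged pools on both of its probe sets, by 4.94-fold on their mean, without passing the adjusted threshold. The other 9 genes each had a 95% interval of the difference that includes 0, and 5 of them lay within 0.20 of 0. Of the 16 probe sets, 7 were higher and 9 lower in aged cells, with a median difference of -0.018 beside 0.06 over all 45037 probe sets tested. Limma with an adjusted p threshold of 0.05 called 0 of the 16, as it did over the table (0%). At an unadjusted p under 0.05, 1 of 16 was higher and 0 were lower. Of all probe sets 7.30% passed, made up of 2.59% of all that were higher and 4.71% of all that were lower. Both aged arrays lay above both young arrays in 4 of the 16, beside 19.0% of all probe sets, and below them in 1, beside 14.8%. With 1 value per gene (the mean of its probe sets), 5 genes were higher and 5 lower, with a median of -0.0079 beside 0.05 over all genes. The same threshold called 0 of the 10 genes, and 0% of all genes. At an unadjusted p under 0.05 only Pax7 passed, where 9.04% of all genes did, 2.85% higher and 6.19% lower. In Pax7 and Chrdl2 both aged values were above both young values, a pattern of 19.9% of all genes, and no member had the reverse pattern, seen in 16.9%.

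**Figure D1:**
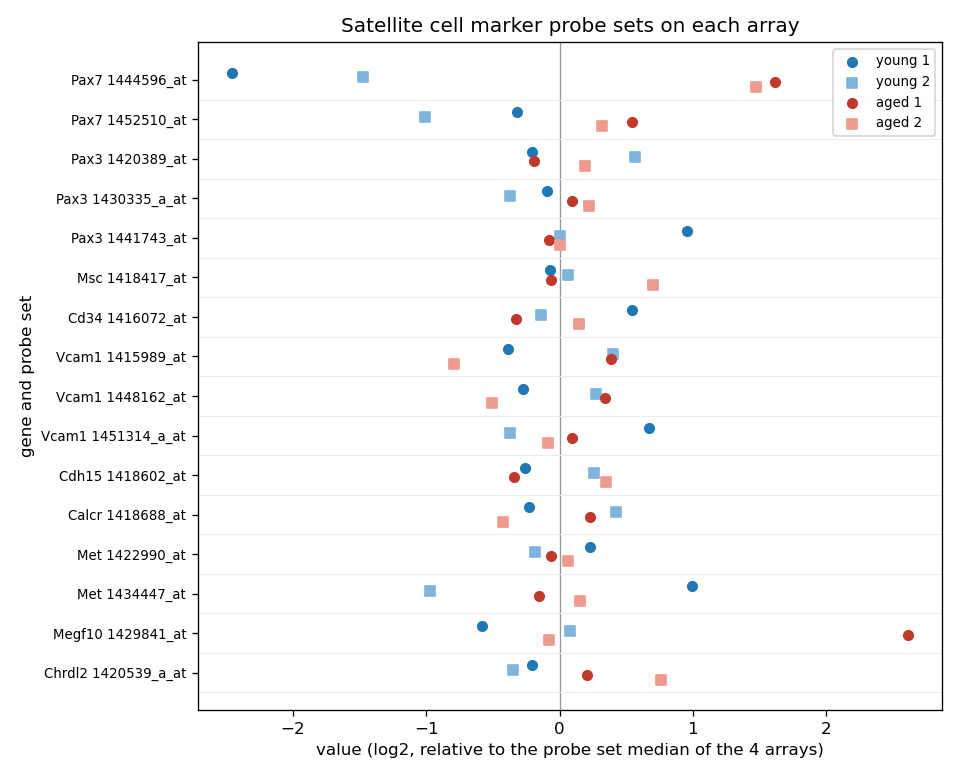
Value of each of the 16 probe sets (rows) on each of the 4 arrays, in log2 relative to the probe set's median; circles are pools numbered 1, squares pools numbered 2, blue young and red aged. The first Pax7 row runs from -2.46 in young 1 to 1.62 in aged 1, and the single point far to the right is Megf10 in aged 1, at 2.62.

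Among the transcription factors, Pax7 was measured by 2 probe sets. Probe set 1444596_at read -2.46 in young 1 and -1.48 in young 2 against 1.62 in aged 1 and 1.48 in aged 2. The ages were parted by a gap of 2.95, and the aged pools lay close together while the young pools were further apart. Its difference was 3.51 ± 0.50, which is 11.4-fold (95% interval 2.20 to 4.83, unadjusted p = 0.0012, adjusted p = 0.290 with limma), the 38th highest of 45037 probe sets. Probe set 1452510_at read -0.32 in young 1 and -1.01 in young 2 against 0.55 in aged 1 and 0.32 in aged 2. Here the gap between ages was 0.63, and the difference was 1.10 ± 0.45, or 2.14-fold (95% interval -0.09 to 2.28, unadjusted p = 0.063, adjusted p = 0.728 with limma).

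The probe sets of Pax7 agreed in direction and disagreed in size, and they put the young pools in opposite order. On 1444596_at young 2 was 0.98 above young 1, and on 1452510_at it was 0.69 below it. In their mean the young pools read -1.39 and -1.24, only 0.14 apart, beside 1.08 and 0.90 in the aged pools. The mean thus had a standard deviation of 0.10 between the young pools, against 0.70 and 0.49 on the single probe sets. The gene difference was 2.31 ± 0.36, or 4.94-fold (95% interval 1.41 to 3.21, unadjusted p = 0.00093, adjusted p = 0.150 with limma), the 83rd highest of 18193 genes. It ran from 2.21 to 2.40 when 1 pool was left out, and was 3.51 when the probe set with the largest spread stood for the gene (adjusted p = 0.245 with limma). The single probe sets moved more when 1 pool was left out, from 3.02 to 4.01 on 1444596_at and from 0.75 to 1.44 on 1452510_at. The values of 1444596_at minus those of 1452510_at were -2.14 and -0.46 in the young pools and 1.07 and 1.16 in the aged pools. This difference between probe sets did not overlap between ages. An exact permutation test (two-sided) gave p = 0.333, the smallest that 2 arrays against 2 allow. Without overlap no other p-value was possible, so the test adds nothing.

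**Figure D2:**
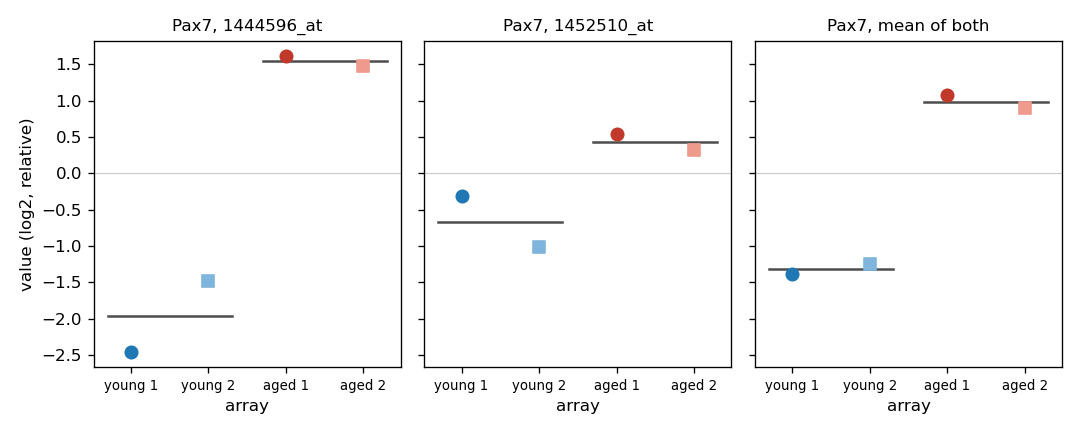
Pax7 on each array (x axis) by its first probe set (left), its second (middle) and their mean (right), in log2 relative values; points are single arrays and horizontal bars the mean of each age. The young points swap order between the first and second panels, and are 0.14 apart in the third.

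Pax3 had 3 probe sets, which did not share a direction. On 1420389_at the young pools read -0.20 and 0.57 and the aged pools -0.19 and 0.19, a difference of -0.18 ± 0.48 with overlapping ages. On 1430335_a_at the young pools read -0.10 and -0.37 and the aged pools 0.10 and 0.22, so that both aged pools were above both young ones (0.39 ± 0.40; 0.26 without young 2). With 1441743_at young 1 stood alone at 0.96, while the remaining 3 arrays lay between -0.08 and 0.00028 (-0.52 ± 0.50; -0.039 without young 1). Its ages are formally parted, aged below young, by a gap of 0.00057. The mean of the 3 gave -0.10 ± 0.36 (95% interval -1.005 to 0.80, adjusted p = 0.976 with limma), the median of the 3 gave 0.10, and with 1 pool left out the mean ran from -0.20 without aged 2 to -0.0034 without aged 1. Of the 4 members with several probe sets, Pax3 alone had probe sets of both signs.

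Msc, also called musculin or MyoR, is a basic helix-loop-helix repressor of muscle genes. Its probe set read -0.07 and 0.07 in the young pools and -0.07 and 0.70 in the aged pools. Aged 2 alone was high, and aged 1 was level with young 1. The difference was 0.32 ± 0.42 (95% interval -0.74 to 1.38, adjusted p = 0.917 with limma) and became -0.06 without aged 2.

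The adhesion molecules at the cell surface had differences under their standard errors. Cd34, a sialomucin found on satellite cells and also on endothelial and fibro-adipogenic cells, read 0.54 and -0.14 in the young pools and -0.32 and 0.14 in the aged pools. The ages overlapped, and the difference was -0.29 ± 0.43 (95% interval -1.37 to 0.79, adjusted p = 0.929 with limma). Without young 1, the highest pool, it was 0.05.

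Vcam1, an adhesion protein that binds alpha-4 integrins and is also made by activated endothelium, had 3 probe sets, all lower in aged cells by small amounts (-0.21, -0.08 and -0.15). Probe sets 1415989_at and 1448162_at both put aged 2 lowest and young 1 next, and differed in which of young 2 and aged 1 was highest. The first read -0.39 and 0.40 in the young pools against 0.39 and -0.80 in the aged pools, and the second read -0.27 and 0.27 against 0.34 and -0.51. Probe set 1451314_a_at gave another order, with 0.67 and -0.37 in the young pools and 0.09 and -0.09 in the aged pools. On the mean of the 3, the young pools read 0.0035 and 0.10 and the aged pools 0.27 and -0.46, so that the aged pools enclosed the young ones. The difference was -0.15 ± 0.42 (95% interval -1.19 to 0.90, adjusted p = 0.966 with limma), and 0.22 without aged 2.

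Cdh15, or M-cadherin, joins the satellite cell to its fibre. It read -0.26 and 0.26 in the young pools and -0.34 and 0.35 in the aged pools, nearly the same pair of values at both ages. The difference was 0.0021 ± 0.44 (95% interval -1.09 to 1.10), and leaving out a pool moved it between -0.34 (without aged 2) and 0.35 (without aged 1), with -0.26 without young 1. Its sign also turned under quantile normalization (-0.050) and when each array was centred on its median (-0.038).

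Of the receptors, Calcr, the calcitonin receptor that helps to hold satellite cells in quiescence, read -0.23 and 0.42 in the young pools and 0.23 and -0.43 in the aged pools. The difference was -0.20 ± 0.45 (95% interval -1.32 to 0.93, adjusted p = 0.958 with limma), with overlapping ages, and it was 0.13 without young 2 or without aged 2. Met, the receptor of hepatocyte growth factor, which activates satellite cells, had 2 probe sets that agreed on the difference (-0.025 and -0.011) and not on the spread. On 1422990_at the young pools read 0.23 and -0.18 and the aged pools -0.07 and 0.07. On 1434447_at they read 0.99 and -0.97 and the aged pools -0.15 and 0.15. The young pools thus lay on either side of the aged ones on both, and 1.96 apart on the second. As a gene Met stood at -0.018 ± 0.51 (95% interval -1.28 to 1.25), at 0.58 without young 1, 0.09 without aged 1 and -0.61 without young 2.

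Megf10, a transmembrane receptor with repeats of the epidermal growth factor type that is expressed in satellite cells, had the second highest difference among the members and rested on 1 array. It read -0.58 and 0.08 in the young pools, 2.62 in aged 1 and -0.08 in aged 2. Aged 2 lay below young 2, so the ages overlapped. The difference was 1.52 ± 0.90 (95% interval -0.73 to 3.78, adjusted p = 0.752 with limma), 0.17 without aged 1 and 2.87 without aged 2.

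Chrdl2, chordin-like 2, is a secreted antagonist of bone morphogenetic proteins. It read -0.21 and -0.35 in the young pools and 0.21 and 0.76 in the aged pools. Both aged pools were higher, with a gap of 0.41. The difference was 0.76 ± 0.39, or 1.69-fold (95% interval -0.22 to 1.74, unadjusted p = 0.105, adjusted p = 0.684 with limma), and ran from 0.48 without aged 2 to 1.04 without aged 1.

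**Figure D3:**
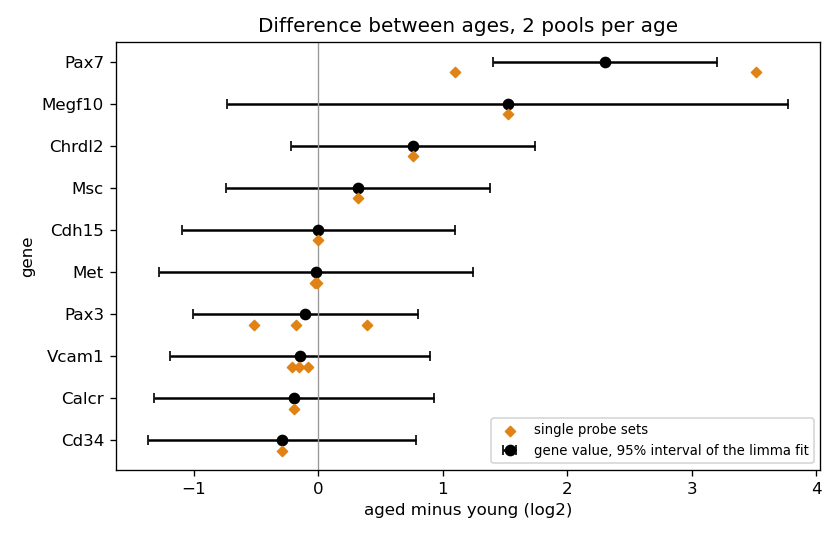
Aged minus young in log2 (x axis) for each of the 10 genes (rows): black points are gene values with the 95% interval of the limma fit over 2 pools per age, orange diamonds the single probe sets. The interval of Pax7 (1.41 to 3.21) lies above 0 and the other 9 intervals include 0.

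In order of the gene differences, Pax7 was followed by Megf10 (1.52), Chrdl2 (0.76), Msc (0.32), Cdh15 (0.0021), Met (-0.018), Pax3 (-0.10), Vcam1 (-0.15), Calcr (-0.20) and Cd34 (-0.29). From Msc downward, neighbours in this order differed by less than the standard error of either. The 95% intervals of Pax7, Megf10, Chrdl2 and Msc each overlap that of the next in order, and that of Megf10 is the widest of the 10. Those of Cd34, Vcam1, Calcr, Pax3, Met and Cdh15 all reach below -1 on the log2 scale, so a 2-fold lower level in aged cells would not be resolved with these pools.

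The genes whose values over the 4 arrays were closest to those of Pax7 were found by the root mean square distance between values centred on their own mean. Nearest were Vasn, a membrane protein that binds transforming growth factor beta (distance 0.08, difference 2.31 ± 0.38, or 1.32 once its _x_at and _s_at probe sets were dropped), and Ogn, a small leucine-rich proteoglycan of the matrix (distance 0.08, difference 2.35 ± 0.36). They were followed by the cadherin-related Cdhr1 (0.09), C030034I22Rik (0.20) and the corepressor scaffold Sin3a (0.22), with differences of 2.24, 1.93 and 1.99. On the median of its probe sets Sin3a stood at 1.38. Because these genes were chosen for values close to those of Pax7, their differences had to be close to its own. The median distance over 18192 genes was 1.18. With 4 arrays few patterns can be parted, and how near the closest genes of other shapes lie was not tested. With either probe set of Pax7 alone, 0 of these 5 genes were among the nearest 5. Among the members Chrdl2 was nearest, at 0.82, with 6.26% of genes nearer. Megf10 followed at 0.99 (19.4% nearer) and Msc at 1.05 (27.8% nearer). The remaining 6 lay at 1.20 to 1.35, with 52.4% to 70.6% of genes nearer. A gene level over the 4 arrays would lie at 1.16 from Pax7. The ranks of these 6 therefore largely restate their small differences between ages.

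Other genes of satellite cell identity were taken from a list of 27, of which 26 were measured. In aged cells 18 were higher and 8 lower, where 53.8% of all genes were higher. The median was 0.24 beside 0.05 over all genes, and 0 passed the adjusted threshold. Without young 1 the median was 0.42, without young 2 it was 0.13 and without aged 1 it was 0.14. At an unadjusted p under 0.05 there were 2 higher and 0 lower, where 2.85% of all genes were higher and 6.19% lower. These were Myf5, the first of the muscle determination factors and a target of Pax7, and Peg3, an imprinted zinc finger gene. Myf5 read -0.83 and -0.90 in the young pools and 0.83 and 2.55 in the aged pools (2.56 ± 0.63, adjusted p = 0.288 with limma; 1.69 without aged 2). Both aged pools were higher and aged 2 was the highest. Peg3 stood at 1.11 ± 0.44 (adjusted p = 0.542; 0.68 without aged 2), with an unadjusted p of 0.048 that was 0.142 on the median of its probe sets and 0.194 without aged 2. The next smallest p-values were those of Notch3 and Sdc4. The receptor Notch3, which is also on the list of pericyte and smooth muscle genes below, stood at 0.88 ± 0.38 (0.590). Sdc4, the syndecan used for the sort, stood at 1.22 ± 0.53 (0.593). Sdc4 read -0.18 and -1.47 in the young pools and 0.38 and 0.41 in the aged pools, and its difference was 0.57 without young 2 and 1.87 without young 1. Both aged values were above both young ones in 8 of the 26 (19.9% of all genes) and below them in 2 (16.9%). Those 2 were Six4 (-0.90 ± 0.42) and Foxk1 (-0.89 ± 0.46).

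Partners and targets of Pax factors, 19 genes, showed no common direction. They include the arginine methyltransferase Carm1, which acts on Pax7, the histone methyltransferase subunits that Pax7 recruits, and the Id genes, inhibitors of basic helix-loop-helix factors. Of the 19, 9 were higher and 10 lower, with a median of -0.06. At an unadjusted p under 0.05, where 2.85% of all genes were higher and 6.19% lower, 1 was higher and 0 were lower. That gene was Id1, at -0.50 and -0.67 in the young pools and 0.50 and 0.70 in the aged pools (1.19 ± 0.36, adjusted p = 0.395 with limma). Its difference ran from 1.09 to 1.29 with 1 pool left out. In the setting with the probe set of the largest SD its unadjusted p was above 0.05 (0.059 with limma). Id1 has 1 probe set, so its difference was unchanged there, and only its standard error grew, to 0.48. Id3 (0.90 ± 0.39, adjusted p = 0.595) and Id2 (0.98 ± 0.45, 0.623) were also higher in both aged pools, and Id2 was 0.53 without aged 2. The ubiquitin ligase Trim32 was lower in both, at -1.80 ± 0.82 (0.619), -0.84 without young 1, -2.76 without young 2 and -1.03 without aged 2. Carm1 stood at -0.69 ± 0.56. The 5 histone methyltransferase subunits ran from -0.40 (Kmt2a) to 0.75 (Rbbp5), with Wdr5 at -0.19, Ash2l at 0.0075 and Kmt2d at -0.35. The median of the 19 was 0.23 without young 2, 0.19 without aged 1 and 0.08 without young 1.

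Ligands and partners of the surface members were taken from a list of 30, of which 29 were measured. Of these 17 were higher and 12 lower, with a median of 0.019. At an unadjusted p under 0.05, where 2.85% of all genes were higher and 6.19% lower, 2 were higher and 1 lower. The higher ones were Cdh2, or N-cadherin, a second cadherin of the fibre contact (1.52 ± 0.49, adjusted p = 0.418 with limma; 1.02 without aged 2), and Itgb7, an integrin chain that pairs with alpha-4 (1.54 ± 0.58, 0.514; 0.94 without young 2). The lower one was Yap1, a growth regulator that acts downstream of Calcr, which read 0.91 and 0.04 in the young pools and -1.22 and -0.53 in the aged pools (-1.35 ± 0.49, 0.483). The unadjusted p of each was above 0.05 without some pools, at 0.112 without young 1 for Cdh2, 0.209 without young 2 for Itgb7 and 0.171 without young 1 for Yap1. Hgf, the ligand of Met, stood at 0.82 ± 0.38 (0.627) on the mean of its 3 probe sets, at -0.17 on their median and at 3.48 on the probe set with the largest spread. Itga4, the main partner of Vcam1, differed by -0.013 ± 0.41. The collagen V chains that bind Calcr differed by -0.08 (Col5a1), 0.72 (Col5a2) and 0.29 (Col5a3). The median of the 29 was 0.19 without aged 2.

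Markers of other cells that the sort could hold also differed between the pools of the 2 ages. Beside the counts below, 53.8% of all genes were higher in aged cells. All 12 muscle fibre genes on the list were lower in aged cells, with list means of 1.55 and 1.48 in the young pools and -1.60 and -1.65 in the aged pools, among them Acta1 (-2.87 ± 0.38) and Ckm (-3.57 ± 0.71). Endothelial cells also make Cd34 and Vcam1, and the endothelial genes were lower in 8 of 10, with means of 0.42 and 0.11 against -0.34 and -0.57 (Pecam1 -0.45 ± 0.49, and 0.05 without aged 2; Cdh5 -0.40 ± 0.45, and 0.05 without young 2). Fibro-adipogenic genes were higher in 8 of 9, with means of -0.49 and -0.35 against 0.71 and 0.37 (Pdgfra -0.05 ± 0.36, Dcn 0.90 ± 0.39). Pericyte and smooth muscle genes were higher in 9 of 10, with means of -0.35 and -0.54 against 0.75 and 0.47 (Rgs5 2.93 ± 0.58, Kcnj8 1.78 ± 0.69, and 0.91 without aged 1). T cell genes were higher in 8 of 8 (-0.73 and -0.995 against 1.20 and 0.56; Cd3d 4.11 ± 0.50, Cd3e 0.34 ± 0.37, and 0.16 without aged 1 or 0.52 without aged 2) and Schwann cell genes in 6 of 6 (-0.29 and -0.32 against 0.66 and 0.19; Mbp 0.98 ± 0.42, Sox10 1.04 ± 0.42, and 0.68 without aged 1). Macrophage genes were lower in 8 of 10 (0.54 and 0.38 against -0.72 and -0.45; Adgre1 -2.42 ± 0.36, C1qa -2.09 ± 0.50). None of these genes passed the adjusted threshold, which not even the difference of Xist below reached, so that an absence of calls there carries little information. Since values are relative, no marker can be said to be at 0. Xist, the RNA of X inactivation in females, was also higher in the aged pools (6.16 ± 0.44, adjusted p = 0.0998 with limma), and the labels do not give the sex of the mice; it was named after its values were seen. Xist and the mean of each of these lists did not overlap between the ages, so with these pools they cannot be told apart from age. Such a parting is not particular to these lists. The mean of the other satellite identity genes (0.03 and -0.24 against 0.29 and 0.18) was also parted by age. So was that of the 3 surface and adhesion members (0.10 and 0.07 against -0.13 and 0.008). Of all single genes, 19.9% had both aged values above both young ones and 16.9% below. The part of these cell types, and of the sex of the mice, in the Pax7 difference and in the values of the other members was not tested.

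**Figure D4:**
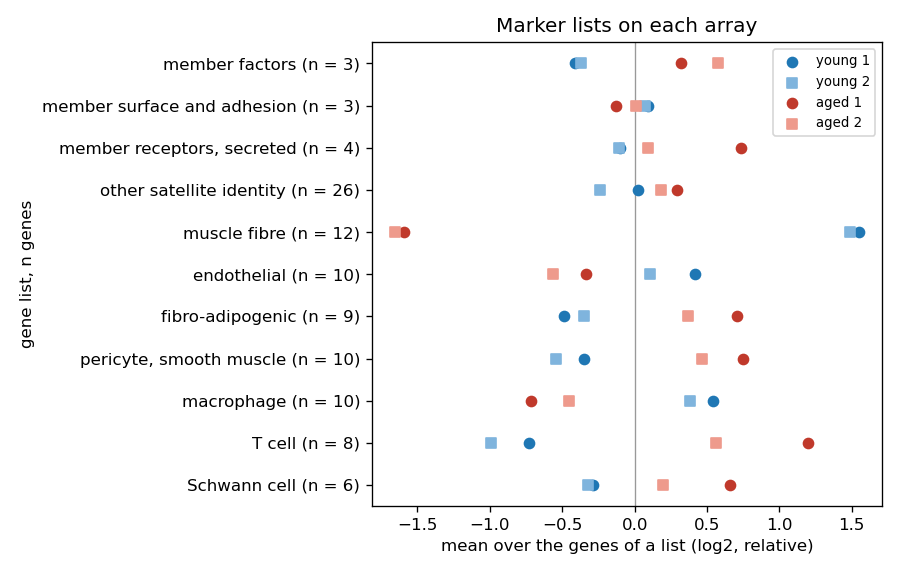
Mean over the genes of each list (rows, with the number of genes) on each array, in log2 relative values (x axis); circles are pools numbered 1, squares pools numbered 2, blue young and red aged. The mean of the 3 surface and adhesion members lies between -0.13 and 0.10 on all arrays. Single genes among them run from -0.46 (Vcam1, aged 2) to 0.54 (Cd34, young 1). The mean of the fibre list lies near 1.5 in young and below -1.5 in aged pools.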

How the data were processed

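The deposited table holds 1 value per probe set and array, taken as log2 values, which the authors had centred so that the median of each probe set over the 4 arrays is 0 (within 5e-07). The labels and the table state neither the log base or direction nor the background correction, probe summary or normalization. Per the labels' protocols, RNA went through 2 rounds of T7 amplification and biotin labelling. Values were used as deposited. After removal of 64 control probe sets, limma 3.58.1 in R 4.3.3 (lmFit, eBayes, two-sided) was fitted to all 45037 probe sets, and to 18193 genes, a gene being the mean of its probe sets with exactly 1 symbol (34945 probe sets; 34741 of them matched an Entrez ID of GRCm38.p6 and took its current symbol). Each fit had 2 residual degrees of freedom, with 2.71 and 3.56 prior ones. Benjamini-Hochberg adjustment ran over each whole fit, with a threshold of 0.05. Both fits were tested on simulated data. With 4 arrays, their number limits the precision. Figures were drawn with matplotlib 3.10.9.

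The members, gene lists, tests and alternatives were chosen with earlier results of these data known. The text names all 10 members, of each of the 3 further lists the 4 genes with the smallest unadjusted p, the 5 genes nearest to Pax7, the first 2 measured genes of each cell type list, and Sdc4. Six4, Foxk1, Carm1, the histone methyltransferase subunits, Itga4, the collagen V chains and Xist fall outside this rule and were named after their values were seen. Alternatives were quantile normalization, centring of arrays on their median, a replicate block, robust eBayes, other ways to combine probe sets and leaving out each pool. A filter on low values could not be applied to centred values.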

Additional observations from a re-analysis of the deposited data

How the results depend on the processing

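Pax7, Megf10 and Chrdl2 kept their direction in 11 of 11 alternative settings each, Pax3, Msc, Cd34 and Vcam1 in 10, Calcr and Met in 9 and Cdh15 in 7. Many of these settings could not change a direction. The replicate block and robust eBayes leave each difference as it is, as do the ways to combine probe sets where a gene has a single one. Leaving out a pool cannot reverse a gene whose ages do not overlap, as in Pax7 and Chrdl2. These counts are therefore no measure of stability. No feature passed the adjusted threshold in any setting, so calls at it say nothing about stability. All reversals concerned differences smaller than their standard errors, except that Hgf became -0.17 with the median of its probe sets. Under quantile normalization Cdh15 stood at -0.050 and Met probe set 1434447_at at 0.035, and with each array centred on its median Cdh15 stood at -0.038. With the median of the probe sets Pax3 stood at 0.10, and with the probe set of the largest SD Pdgfra stood at 0.026. The median of the ligands and partners was 0.13 under quantile normalization, 0.11 with the median of the probe sets and 0.20 with the probe set of the largest SD, which also gave -0.35 for Pax partners and targets and, among single genes, 3.48 for Hgf, 2.82 for Peg3, 2.55 for Cdh2 and -2.28 for Yap1. The median of Pax partners and targets turned to 0.039 with the median of the probe sets, and that of ligands and partners to -0.021 with centred arrays. The nearest genes of Pax7 shared 0 with those of either of its probe sets.

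With 1 pool left out, the ranges were -0.57 to 0.20 for Pax3 probe set 1420389_at, -0.065 to 0.70 for Msc, -0.63 to 0.052 for Cd34, -0.52 to 0.22 for Vcam1 (-0.80 to 0.38, -0.51 to 0.34 and -0.67 to 0.37 for its probe sets), -0.34 to 0.35 for Cdh15, -0.52 to 0.13 for Calcr, -0.61 to 0.58 for Met (-0.23 to 0.18 and -0.99 to 0.97 for its probe sets), -0.95 to 0.050 for Pecam1, -0.86 to 0.054 for Cdh5 and -0.12 to 0.015 for Pdgfra. The list medians ran from 0.13 to 0.42 for satellite identity, -0.16 to 0.23 for Pax partners and targets and -0.0067 to 0.19 for ligands and partners. Pools with the same number are not stated to be paired, and the deviations of young 1 and aged 1 had a Pearson r of 0.13 across 45037 probe sets, which are no independent replicates. With the replicate block 3455 probe sets had an unadjusted p under 0.05, against 3286 without it, and Pax7 had an adjusted p of 0.303. With the block the unadjusted p of Peg3 (0.058), Itgb7 (0.083), Yap1 (0.065) and Kcnj8 (0.087) was above 0.05, that of Trim32 (0.0073) came under it, and those of Pax7 (0.0031), Myf5, Id1 and Cdh2 stayed under it.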
